A study of Homo sapiens with 4 samples.

Results

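Integrins and tetraspanins are 2 families of cell-surface proteins, and the regions described here are the H3K27ac regions that the authors' annotation assigned to genes whose names start with ITGA, ITGB or TSPAN. That rule took 124 of the 45672 regions in 4 deposited tables, 79 with an integrin name and 45 with a tetraspanin name. They belong to 29 of the 13171 gene names in the tables. Of the 67 names with these prefixes in RefSeq, the 29 comprise 16 of 26 integrin subunit genes, 10 of 22 TSPAN protein genes and 3 others: ITGB1BP1, which encodes an integrin-binding adaptor, and the antisense RNA genes ITGA6-AS1 and ITGA9-AS1. The 38 names left had no region assigned to them.

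The study compared Kasumi-1 cells carrying a non-targeting CRISPR guide (sgNT, genotype given as WT) with Kasumi-1 cells carrying a guide against SETD8 (sgSETD8, genotype given as SETD8 knockout), with 2 samples in each group. Kasumi-1 is a human line from an acute myeloid leukaemia with the t(8;21) translocation, and SETD8, also called KMT5A, is the histone methyltransferase that places a single methyl group on lysine 20 of histone H4. H3K27ac, acetylation of lysine 27 on histone H3, marks active promoters and enhancers. It was mapped by CUT&Tag, a method that tethers a transposase to the mark through an antibody, although not every sample title names that method. The labels do not say whether the knockout cells were a clone or a pool, nor whether the 2 samples of a group came from separate cultures.

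An integrin is a pair of an alpha and a beta chain that holds a cell to matrix or to another cell and signals in both directions across the membrane. Blood cells use the leukocyte integrins built on ITGB2 and the ITGA4 and ITGB1 pair to attach to vessel walls and bone marrow stroma, and ITGAX is a marker of dendritic and some myeloid cells. Tetraspanins have 4 membrane passes and arrange integrins, proteases and receptors into clusters. The TspanC8 members (TSPAN5, TSPAN10, TSPAN14, TSPAN15, TSPAN17 and TSPAN33) carry the protease ADAM10, which sheds Notch and other surface proteins, out of the endoplasmic reticulum.

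The promoters of 6 members that the results below return to are shown first, as the 250 bases before a RefSeq start site (GRCh38.p14, 5′ to 3′ on the gene's strand). In the dense pair TSPAN14 and ITGB1 carry the best-ranked regions, TSPAN5 has the greatest covered length, ITGA4 and ITGAV have start-site regions of nearly the same extent under both guides, and the TSPAN33 start was covered under sgSETD8 only. Capitals mark a RUNX motif (TGTGGT) in TSPAN14 and a GATA motif (AGATAA, read here on the opposite strand) in ITGAV. The starts shown for these genes are internal ones, chosen because they hold a motif. Each gene also has a start further upstream, chr10:80454310 for TSPAN14 and chr2:186590056 for ITGAV. Those upstream promoters hold neither motif, and both starts were covered in both dense tables.
TSPAN14, chr10:80459035-80459284, plus strand: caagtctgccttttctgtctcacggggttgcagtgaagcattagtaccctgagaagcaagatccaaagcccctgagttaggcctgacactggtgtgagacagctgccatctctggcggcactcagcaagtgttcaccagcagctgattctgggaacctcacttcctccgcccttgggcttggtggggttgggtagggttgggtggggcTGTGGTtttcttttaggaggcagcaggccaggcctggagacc
ITGAV, chr2:186599955-186600204, plus strand: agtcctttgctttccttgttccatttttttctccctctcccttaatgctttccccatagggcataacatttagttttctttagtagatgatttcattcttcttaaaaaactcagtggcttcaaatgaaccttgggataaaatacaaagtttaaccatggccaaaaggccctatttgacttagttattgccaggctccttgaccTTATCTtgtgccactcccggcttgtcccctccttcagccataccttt
ITGB1, chr10:32958231-32958480, minus strand: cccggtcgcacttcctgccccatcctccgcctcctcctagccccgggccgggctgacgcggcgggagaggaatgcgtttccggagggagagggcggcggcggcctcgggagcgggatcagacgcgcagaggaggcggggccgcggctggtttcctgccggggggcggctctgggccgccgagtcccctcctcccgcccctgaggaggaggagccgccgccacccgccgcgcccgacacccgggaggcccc
ITGA4, chr2:181457136-181457385, plus strand: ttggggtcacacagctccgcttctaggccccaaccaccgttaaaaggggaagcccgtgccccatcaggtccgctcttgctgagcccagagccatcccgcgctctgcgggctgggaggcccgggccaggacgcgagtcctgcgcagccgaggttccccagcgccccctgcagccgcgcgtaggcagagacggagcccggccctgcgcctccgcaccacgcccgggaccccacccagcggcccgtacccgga
TSPAN5, chr4:98658612-98658861, minus strand: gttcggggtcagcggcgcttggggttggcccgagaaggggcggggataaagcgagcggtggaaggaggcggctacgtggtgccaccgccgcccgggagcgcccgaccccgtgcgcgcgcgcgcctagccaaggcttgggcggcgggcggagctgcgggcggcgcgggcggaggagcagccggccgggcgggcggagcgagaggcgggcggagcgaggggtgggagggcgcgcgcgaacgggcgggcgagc
TSPAN33, chr7:129144457-129144706, plus strand: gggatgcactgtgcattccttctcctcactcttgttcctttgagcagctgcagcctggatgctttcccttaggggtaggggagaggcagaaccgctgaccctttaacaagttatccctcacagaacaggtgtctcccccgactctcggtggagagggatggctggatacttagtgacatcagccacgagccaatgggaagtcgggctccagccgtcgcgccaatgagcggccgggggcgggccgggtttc

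Promoter entries were found for 44 of the genes with these prefixes, 59 start sites in all. No region of the sparser tables covered one of them, whichever gene the region was assigned to. Dense sgNT regions covered 10 start sites of 7 genes and dense sgSETD8 regions covered 11 start sites of 8 genes, the added one being that of TSPAN33. The promoter table had no entry for ITGAX and ITGA3 among others. By the authors' annotation, the ITGA3 start lay in a region of both dense tables and the ITGAX start in one of dense sgSETD8 alone. The letters searched on both strands were TGTGGT for RUNX, TGANTCA for AP-1, AGATAA for GATA and CCGGAAG for ETS factors, and none of these overlaps another in the promoters printed. Of 35116 RefSeq promoters of the same length, 10.98% hold the RUNX letters, 6.57% the AP-1 letters, 9.17% the GATA letters and 8.52% the ETS letters. Among the 11 covered start sites of these genes, the RUNX letters occur once, at the start of TSPAN14 shown above, and the GATA letters once, at the ITGAV start shown above. A match is a run of letters and not evidence of binding.

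The 4 tables form 2 pairs that differ in scale. The sparser pair holds 5186 regions for sgNT, a table whose region names give only the cell line and were read as the control, and 7276 for sgSETD8. The dense pair holds 15149 and 18061 regions. Each region is a single peak or a run of peaks stitched together, with a signal that the authors' file gives as a density per base multiplied by its length. No source used here says what the density was scaled to or how many reads lie behind it, so depth is unknown. Apart from that sparser control, the region names tie a table to its group, but none ties it to 1 of the group's samples. KMT5A, the targeted gene, had 1 region of 13.2 kb in dense sgNT and 1 of 13.1 kb in dense sgSETD8, and none in the sparser tables. A region of acetylation does not report on whether the coding sequence was cut, so these values do not check the knockout. With 2 tables against 2, an exact two-sided permutation test cannot give a p below 0.333, and comparisons are therefore given as values, beside the share of all regions or genes that met the same criterion.

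Integrin and tetraspanin genes held 15 regions in the sparser sgNT table, 15 in the sparser sgSETD8 table, 46 in dense sgNT and 48 in dense sgSETD8. These are 0.289%, 0.206%, 0.304% and 0.266% of each table, with exact 95% binomial intervals of 0.162% to 0.477%, 0.115% to 0.340%, 0.222% to 0.405% and 0.196% to 0.352% that cover counting error only. The mean was 30.5 ± 21.9 per sgNT table and 31.5 ± 23.3 per sgSETD8 table (SD, n = 2 tables each), a difference far smaller than that between the pairs. Within pairs the log2 ratio of sgSETD8 to sgNT was 0.00 in the sparser and 0.06 in the dense pair. Region counts of the families as a whole were thus nearly equal under the 2 guides. The tables at large held more regions under sgSETD8, 7276 against 5186 in the sparser pair and 18061 against 15149 in the dense pair. The member share was therefore lower in sgSETD8 in both pairs, with intervals that overlap. Regions of at least 500 bp, however, numbered 10 and 2 in the sparser pair and 39 and 39 in the dense pair. All regions of the sparser pair differed in width too, with a median of 512 bp in sgNT and 341 bp in sgSETD8. The share of all regions of at least 500 bp was not counted. Split by family, integrin names had 11 sgNT and 7 sgSETD8 regions in the sparser pair, and 29 and 32 in the dense. Tetraspanin names had 4 and 8 in the sparser pair, and 17 and 16 in the dense. Neither family had the same direction in both pairs.

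**Figure D1:**
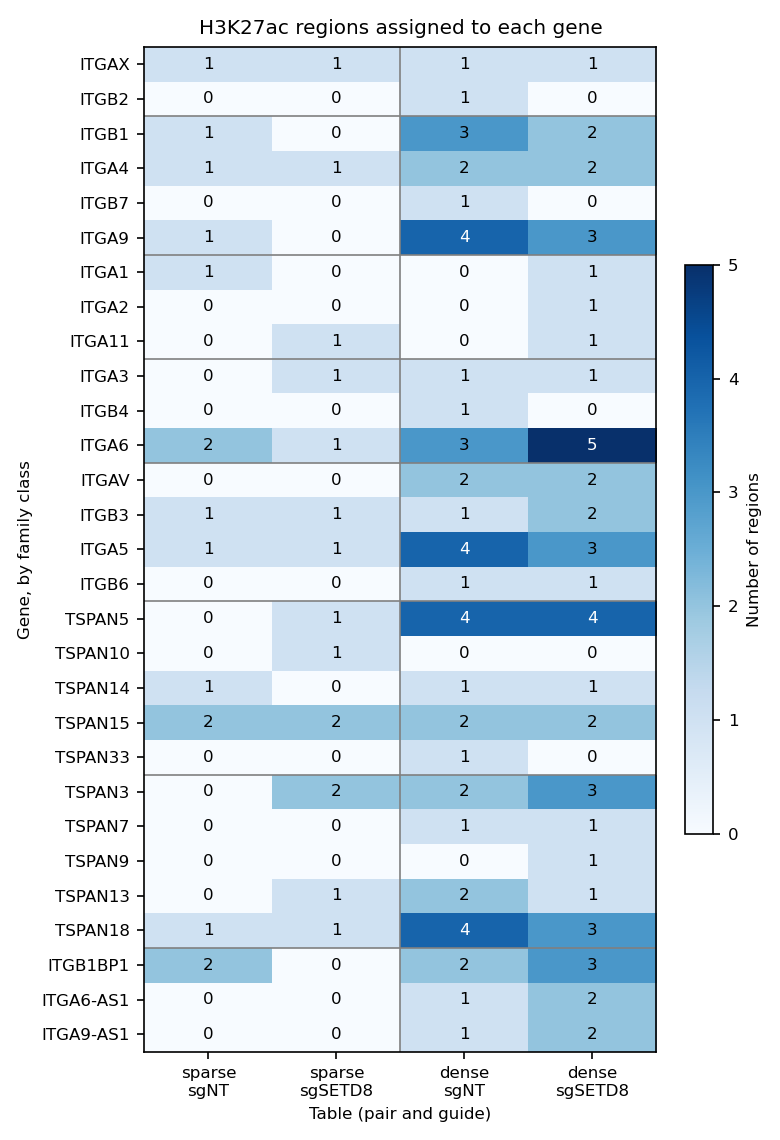
Number of H3K27ac regions assigned to each of the 29 genes (rows, grouped by family class) in the 4 tables (columns: pair and guide), with the count printed in each cell and shown by colour. ITGA6 has the highest single count, 5 in dense sgSETD8, and most cells of the sparser pair hold 0 or 1.

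A region was found in all 4 tables for 7 genes: ITGA4, ITGA5, ITGA6, ITGAX, ITGB3, TSPAN15 and TSPAN18. Another 8 were in 3 tables, 7 in 2 and 7 in 1 table, and 20 were in both dense tables. A shared gene name was not always a shared position. In 3 places, at ITGA5, ITGA6 and ITGAX, a sparser sgNT region overlapped regions of all 3 other tables.

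Most regions lay inside genes rather than at their starts. Introns held 9 of 15, 8 of 15, 31 of 46 and 35 of 48 regions, in the order sparser sgNT, sparser sgSETD8, dense sgNT, dense sgSETD8. The annotated start site was inside 0, 0, 7 and 8 of them. Of all regions in the same tables, 56.0%, 47.3%, 68.3% and 67.5% were intronic. The gene name is the nearest start site and not proof of a target: 3, 2, 6 and 6 regions lay in the transcript of a different gene, such as PEAK1 for TSPAN3 and ASAP2 for ITGB1BP1. Member regions were wide in the dense pair, with a median of 3252 bp in sgNT and 3948 bp in sgSETD8, against 1515 and 1499 bp for all regions.

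The TspanC8 tetraspanins had the greatest covered length of the family classes, 265.2 kb in dense sgNT and 256.7 kb in dense sgSETD8. TSPAN14 lay inside 1 region in each dense table, chr10:80442668-80531225 in sgNT and chr10:80442668-80531440 in sgSETD8, that joins 14 peaks and spans the whole gene with its start sites. The region measured 88.6 kb in sgNT and 88.8 kb in sgSETD8 and ranked 30 and 29 by signal in its table. Its density was 1.91 per base in sgNT and 1.41 in sgSETD8. It held 0.172% of all signal in dense sgNT and 0.143% in dense sgSETD8. In the sparser pair, sgNT had a region of 13.4 kb inside this interval, ranked 252 of 5186, and sgSETD8 had none. The extent and rank of this locus were therefore close in the dense pair, while the sparser pair showed it in the control alone.

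TSPAN5, with 4 regions in each dense table, had the greatest covered length of any member in that pair. Its regions covered 135.8 kb in sgNT and 143.6 kb in sgSETD8, of which 125.1 kb was common to both. The region over the start site measured 60.5 kb in sgNT and 62.1 kb in sgSETD8, with 14 peaks in each and ranks 443 and 373. The most distal of the 4 differed most, 10.7 kb in sgNT and 1.05 kb in sgSETD8. In the sparser pair only sgSETD8 had a region assigned to TSPAN5, 274 bp long and ranked 6509 of 7276, and no dense region overlapped it. By position, a sparser sgNT region assigned to LOC105377342 (chr4:98662880-98663891) lay inside the start-site region of both dense tables. No sparser sgSETD8 region overlapped those start-site regions.

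At TSPAN33 the gene name and the position give different pictures. Dense sgNT had a region of 22.3 kb (chr7:129148091-129170431, rank 2992), over most of the gene but not its start. No dense sgSETD8 region carried the name TSPAN33, yet a region of 40.4 kb (chr7:129110205-129150589, rank 2575), assigned to LOC407835, covered the TSPAN33 start and ended 5.88 kb into the gene. The 2 regions shared 2.50 kb. Neither sparser table had a TSPAN33 region.

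TSPAN15 was present in all 4 tables with 2 regions in each. In the dense pair they covered 18.6 kb in sgNT and 24.3 kb in sgSETD8 but shared only 5.27 kb, since the long region lay over the first intron in sgNT and further into the gene in sgSETD8. TSPAN10 had a single region, 363 bp in sparser sgSETD8 at rank 1030, and no dense region overlapped it. TSPAN17 had no region in any table. ADAM10, the protease these tetraspanins carry, had 1 region in each sparser table, 14.3 kb in sgNT and 0.442 kb in sgSETD8, and none in the dense tables.

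**Figure D2:**
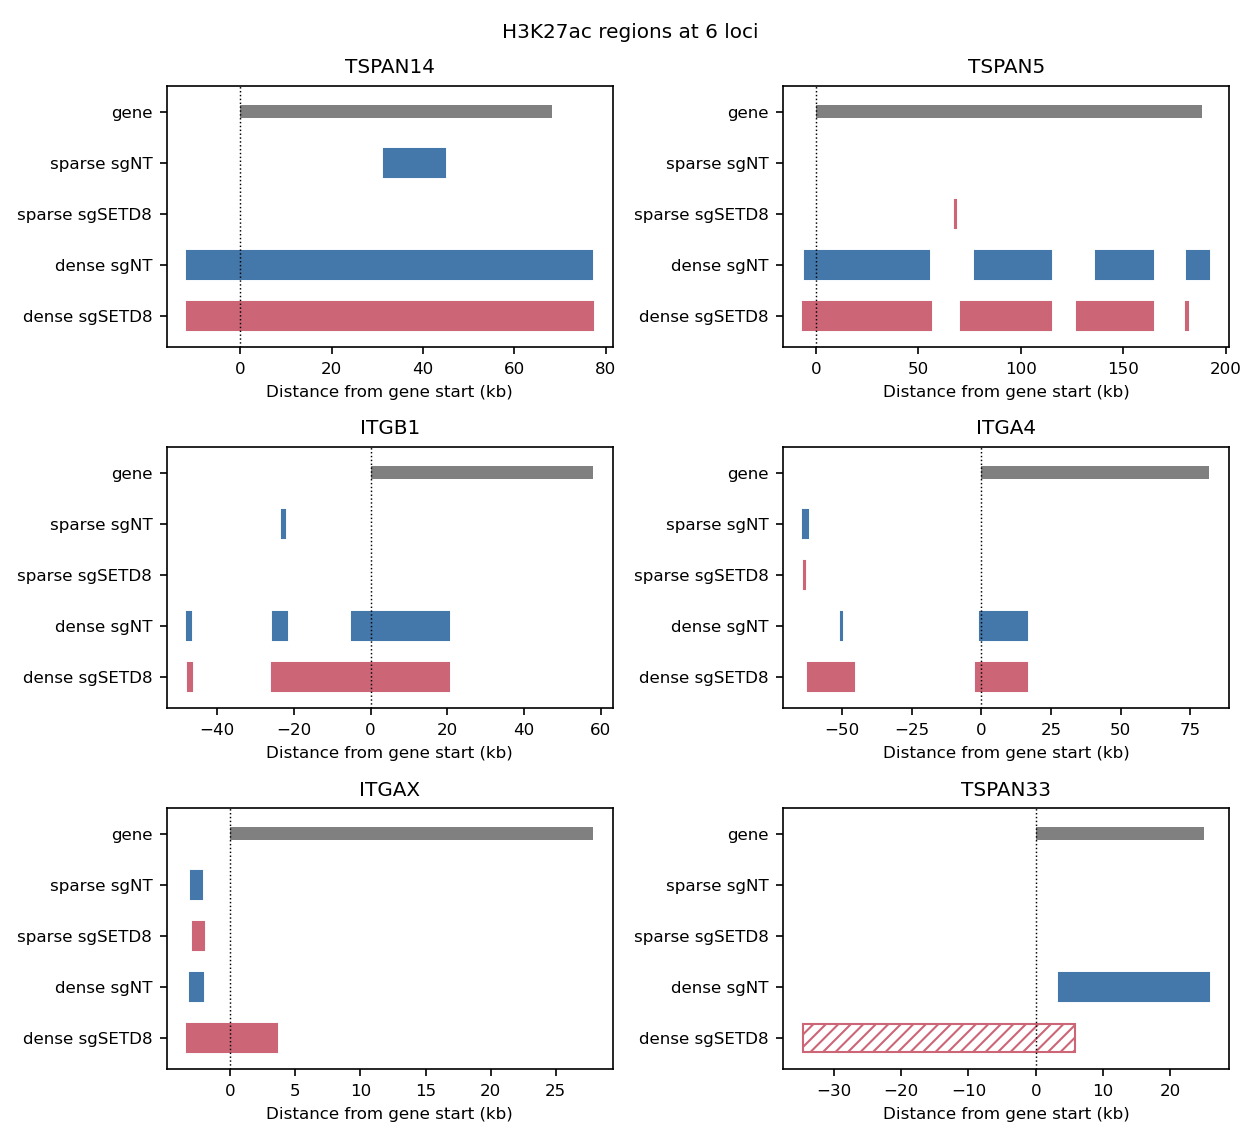
Regions at 6 genes (panels) against distance from the gene's 5′ end in kb, with the gene as a grey bar and 1 row per table (sgNT blue, sgSETD8 red). Hatching marks a region assigned to another gene. TSPAN14 is covered over the same extent in both dense tables, 2 separate ITGB1 regions of sgNT are 1 region in sgSETD8, and at TSPAN33 the dense regions differ in position.

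Among the other tetraspanins, TSPAN18 and TSPAN13 had greater covered length in dense sgSETD8 than in dense sgNT, and TSPAN3 had less. TSPAN18 regions covered 25.1 kb in sgNT and 54.6 kb in sgSETD8, where the upstream acetylation was called as 1 region of 52.7 kb with 10 peaks (rank 560). In sgNT the same stretch held regions of 21.1 and 2.24 kb with 3 and 2 peaks. TSPAN13 regions covered 13.2 kb in sgNT with 2 regions and 30.5 kb in sgSETD8 with 1, which joined 7 peaks and included the start site. In both cases the single sgSETD8 region contained nearly all of the sgNT length it was set against. In the sparser pair, TSPAN18 had 7.55 kb in sgNT, inside the dense regions, and a separate 483 bp region in sgSETD8. TSPAN3 covered 24.2 kb in dense sgNT and 18.4 kb in dense sgSETD8, and TSPAN7 covered 0.353 and 5.06 kb. The sparser pair had TSPAN3 regions under sgSETD8 only, of 324 and 369 bp, and neither overlapped a dense region. TSPAN9 had 1 region, 363 bp in dense sgSETD8, which ranked 18058 of 18061.

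ITGB1, the beta chain shared by many alpha chains, carried the best-ranked integrin region in both dense tables. In sgNT the start-site region chr10:32937879-32963029 measured 25.2 kb at rank 389 and an upstream region chr10:32979919-32983751 measured 3.83 kb at rank 3576. In sgSETD8 both lay within 1 region, chr10:32937776-32983834, of 46.1 kb with 8 peaks and rank 294. The joined region had a density of 0.8996 per base, against 1.73 and 1.56 in the sgNT regions. That density is taken over the whole stitched span, including the interval between the sgNT regions, which no sgNT region covered. Its 8 peaks stand beside 5 and 2 in the sgNT regions. Peak positions inside a region are not given, so how much of the interval was called in sgSETD8 is unknown. The ITGB1 regions together held 0.0514% of all signal in dense sgNT and 0.0479% in dense sgSETD8, over 30.1 and 47.0 kb. The sparser sgNT table had 1 region of 591 bp within the upstream region, and the sparser sgSETD8 table had none.

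ITGA4, the partner of ITGB1 in the receptor for VCAM1, had a start-site region in both dense tables, 17.02 kb in sgNT at rank 1116 and 18.5 kb in sgSETD8 at rank 1097. Upstream, dense sgSETD8 had a region of 16.7 kb with 3 peaks (rank 5096) where dense sgNT had one of 454 bp (rank 12363). Both sparser tables had an ITGA4 region further upstream, in an intron of LINC01934, 1.62 kb in sgNT and 353 bp in sgSETD8, the latter inside the former. The promoter region was thus alike between guides and the upstream one longer in sgSETD8. ITGA9, related to ITGA4, had 4 regions of 5.80 kb in total in dense sgNT and 3 of 13.7 kb in dense sgSETD8, and 1 pair of these overlapped. ITGB7, the other partner of ITGA4, had a single region of 578 bp, in dense sgNT. ITGAE had none.

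The leukocyte integrins built on ITGB2 had little assigned acetylation. ITGAX had 1 region in every table, all overlapping at a place upstream of the start, where the sparser sgNT region has its centre 2577 bp before it. It measured 781 bp in sparser sgNT at rank 1615, 871 bp in sparser sgSETD8 at rank 632, 999 bp in dense sgNT at rank 8758 and 6.89 kb in dense sgSETD8 at rank 6360. Only the dense sgSETD8 region reached across the start site. ITGB2 had 1 region, 1.05 kb in its first intron in dense sgNT at rank 10242. ITGAL, ITGAM and ITGAD had no region in any table, by name or within the gene.

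Among the integrins that bind the RGD peptide, ITGA5 had the highest density of any member in each table. ITGA5, the fibronectin receptor alpha chain, had a first-intron region of 3.37 kb in both dense tables, chr12:54411029-54414397 in sgNT and chr12:54411062-54414431 in sgSETD8. Its density was 4.46 per base in sgNT and 3.89 in sgSETD8, with ranks 1570 and 1568. Both sparser tables had a region inside it, 1.41 kb at rank 320 in sgNT and 413 bp at rank 629 in sgSETD8, the best-ranked member region of that table. The ITGA5 start site lay in a further region, assigned to LOC102724050, of 16.0 kb in dense sgNT (rank 396) and 15.9 kb in dense sgSETD8 (rank 333). A region at the same place in the first intron was thus present in all 4 tables.

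ITGAV had a start-site region of 23.5 kb at rank 1263 in dense sgNT and of 23.8 kb at rank 1274 in dense sgSETD8. A second region, deeper in the gene, measured 9.79 kb in sgNT and 604 bp in sgSETD8. ITGB3, which pairs with ITGAV or with the platelet chain ITGA2B, covered 0.769 kb in dense sgNT and 5.80 kb in dense sgSETD8. The sparser pair had 344 bp of ITGB3 in sgNT and 413 bp in sgSETD8, 34431 bp apart. ITGB6 had a dense region of 700 bp under sgNT and one of 4.25 kb under sgSETD8, 14552 bp apart. ITGA2B and ITGA8 had no region by name or position. ITGB5 and ITGB8 had none by name, although regions assigned to other genes lay within them, 1 of 7.43 kb in ITGB5 in dense sgNT, and 0.418 kb in sgNT and 8.98 kb in sgSETD8 in ITGB8.

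By assigned length, the laminin receptors ITGA3 and ITGA6 covered less in sgSETD8 than in sgNT in the dense pair, but for ITGA6 this came from upstream regions. ITGA3 had a start-site region of 22.7 kb with 6 peaks at rank 1664 in sgNT and of 14.3 kb with 3 peaks at rank 3651 in sgSETD8. In the sparser pair only sgSETD8 had an ITGA3 region, of 274 bp, within the part that dense sgNT alone covered. ITGA6 covered 36.3 kb with 3 regions in sgNT and 28.6 kb with 5 in sgSETD8, where a sgNT region of 22.9 kb was represented by regions of 2.03 and 3.65 kb. Its first-intron region went the other way, 2.62 kb in sgNT and 11.4 kb in sgSETD8, and regions of any name covered 12.8 kb of the gene in sgNT and 21.8 kb in sgSETD8. The far upstream ITGA6 region, 144840 bp before the start in sparser sgNT, was present in all 4 tables, with 10.7 and 11.1 kb in the dense pair and 1.12 and 0.283 kb in the sparser pair. ITGB4 had a single region of 341 bp, in dense sgNT at the end of SAP30BP, and ITGA7 had none.

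The collagen receptors ITGA1, ITGA2 and ITGA11 had dense regions under sgSETD8 and none under sgNT by name, all single peaks of low rank. They measured 912 bp at rank 12634 for ITGA1, 1441 bp at rank 10186 for ITGA2 and 421 bp at rank 13586 for ITGA11. By position the genes differed. Within ITGA1 both dense tables had a region assigned to PELO, 1.96 kb in sgNT and 2.34 kb in sgSETD8. Within ITGA2 only sgSETD8 had dense regions, its own and one of 7.35 kb assigned to MOCS2. Regions assigned to FEM1B reached into ITGA11, 3 in dense sgNT and 2 in dense sgSETD8, and regions of any name covered 33.6 kb of ITGA11 in sgNT and 4.05 kb in sgSETD8. At ITGA11 the covered length thus ran opposite to the count by name. ITGA11 was the one member found in the 2 sgSETD8 tables and absent from both sgNT tables, but its sparser region of 274 bp and its dense region of 421 bp did not overlap. Of all gene names in the tables, 2.85% had that pattern, and 0.858% had the reverse, a region in both sgNT tables only, which no member had. ITGA1 went the other way in the sparser pair, with a region of 704 bp at PELO in sgNT alone. ITGA10 had no region.

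By covered length the 3 accessory genes followed no common direction. By region number each had more in dense sgSETD8 than in dense sgNT, where 37.3% of all genes had more. The counts in sgNT and sgSETD8 were 2 and 3 at ITGB1BP1, 1 and 2 at ITGA6-AS1 and 1 and 2 at ITGA9-AS1. ITGB1BP1 covered 41.2 kb in dense sgNT and 26.0 kb in dense sgSETD8, with 2 small regions in the sparser sgNT table and none in sparser sgSETD8. ITGA6-AS1 covered 10.2 and 10.5 kb in dense sgNT and sgSETD8, with 8.04 kb in common, and ITGA9-AS1 covered 0.382 and 0.845 kb.

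Counted by gene name, 18 members had a region in the sparser pair. Of these, 7 had one under both guides, 6 under sgSETD8 only and 5 under sgNT only, where 45.9% and 28.8% of all genes in that pair were in sgSETD8 only and sgNT only. In the dense pair 28 members had a region, 20 under both guides, 4 under sgSETD8 only (ITGA1, ITGA2, ITGA11 and TSPAN9) and 4 under sgNT only (ITGB2, ITGB4, ITGB7 and TSPAN33), against 20.5% and 11.4% of all genes. Apart from TSPAN33, each of the dense genes seen under 1 guide had a single region of at most 1.44 kb. Among the best-ranked 5000 regions of each table, 1 member was under sgSETD8 only and 1 under sgNT only in the dense pair, beside 794 and 793 of all 4656 genes. Among regions of at least 500 bp no member was under sgSETD8 only in the sparser pair, beside 26.7% of all genes. By region number, 10 members had more in dense sgSETD8, 9 had fewer and 9 had the same, where 37.3% of all genes had more and 21.2% had fewer. The sparser pair gave 6, 6 and 6, where 51.3% of all genes had more and 33.4% had fewer.

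Regions were also compared by position, taking as a counterpart any region of the other guide in the same pair that shared at least 1 base. In the sparser pair 11 of 15 sgNT member regions (73.3%, exact 95% interval 44.9% to 92.2%) and 11 of 15 sgSETD8 member regions (the same share and interval) had no counterpart, beside 79.1% and 85.1% of all regions. In the dense pair 9 of 46 sgNT regions (19.6%, 9.36% to 33.9%) and 15 of 48 sgSETD8 regions (31.3%, 18.7% to 46.3%) had none, beside 22.7% and 34.0% of all. Each member interval contains the share of all regions. These intervals are wide, count regions of the same gene as independent and come from 1 table per guide. They therefore do not test whether these genes depart from the tables at large. Members without a counterpart were short, with medians of 519 bp in dense sgNT and 494 bp in dense sgSETD8, against 10.2 and 10.8 kb for those with one. When at least 50% of a region had to be covered, 34.8% of dense sgNT and 54.2% of dense sgSETD8 member regions had no counterpart, beside 35.1% and 51.3% of all regions. No sparser tetraspanin region, of 4 in sgNT and 8 in sgSETD8, had a counterpart.

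By position alone, whatever the assigned gene, regions lay within 10, 9, 25 and 24 of the 48 subunit and TSPAN genes in sparser sgNT, sparser sgSETD8, dense sgNT and dense sgSETD8. They covered 20.6, 4.31, 419.4 and 417.0 kb of those genes. The covered length inside the genes was thus close between the dense tables. It was lower in sgSETD8 in the sparser pair, where 13.4 kb of the sgNT length was 1 region at TSPAN14. Over all regions of that pair the median width was 512 bp in sgNT and 341 bp in sgSETD8. The same measure over all genes was not taken.

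The sparser tables were then set against the dense ones. Of the sparser sgNT member regions 14 of 15 (93.3%, 68.1% to 99.8%) overlapped a dense region of either guide, and of the sparser sgSETD8 member regions 5 of 15 (33.3%, 11.8% to 61.6%), beside 79.0% and 29.3% of all regions. Among tetraspanins the counts were 4 of 4 and 1 of 8, and among integrins 10 of 11 and 4 of 7. In the sparser sgSETD8 table the tetraspanin share in dense calls was thus 12.5% (0.316% to 52.65%). That interval contains the 29.3% of all its regions, so the count does not set tetraspanins apart from the table. All 15 member regions of that table were single peaks, and 3 had its shortest width of 274 bp. The share of all regions in dense calls also differs between the sparser tables, and its part in the member counts was not tested.

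**Figure D3:**
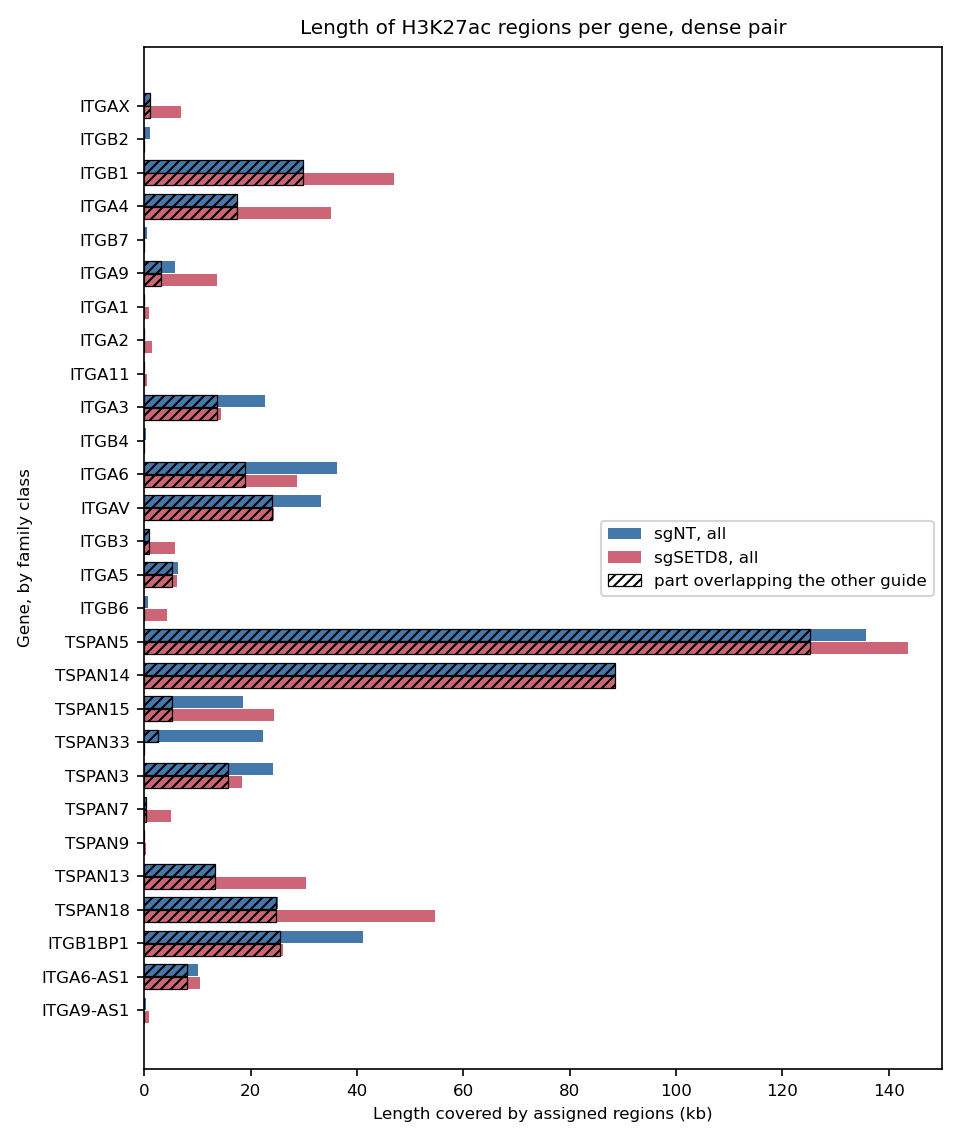
Length in kb (x axis) covered by the regions assigned to each gene in the dense pair, sgNT in blue and sgSETD8 in red, with the part that overlaps a region of the other guide hatched. TSPAN5 and TSPAN14 have the longest bars, and the TSPAN14 bars are hatched over nearly their whole length. In TSPAN18, TSPAN13 and ITGA4 nearly all of the sgNT bar is hatched and the sgSETD8 bar extends past it.

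Within the dense pair the guides also differed in length. Of the 20 members with a region under both guides, 10 had an assigned length at least 1.5 times greater in sgSETD8 (ITGA4, ITGA9, ITGA9-AS1, ITGAX, ITGB1, ITGB3, ITGB6, TSPAN7, TSPAN13 and TSPAN18) and 2 at least 1.5 times shorter (ITGA3 and ITGB1BP1). The median ratio was 1.44. Assigned length is the span of whole regions, gaps between stitched peaks included. Peaks in sgNT and sgSETD8 numbered 8 and 9 at ITGB1, 6 and 10 at ITGA4, 7 and 12 at TSPAN18 and 3 and 7 at TSPAN13. They numbered 1 and 3 at ITGB3, and 1 and 2 at each of ITGAX, ITGB6, TSPAN7 and ITGA9-AS1. At ITGA9 they numbered 6 and 4. Since gaps are included, a greater length is not by itself more acetylated sequence, although peak number rose at all of these longer genes but ITGA9. Of all genes with a region under both guides, 35.6% were longer and 19.4% shorter by that measure, with a median ratio of 1.14, so greater length in sgSETD8 was common in the table at large. Restricted to the 5000 best-ranked regions per table, 3 members were longer and 3 shorter, beside 23.9% and 14.3% of all genes, so the excess of longer members was not seen there. This measure was chosen after the values were seen, rests on 1 table per guide and was not tested.

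Signal density was compared where a dense sgNT and a dense sgSETD8 region covered at least 90% of each other, which held for 1769 regions in the table and 7 of members. Over all 1769 the median log2 ratio of sgSETD8 to sgNT was −0.26, which was subtracted because the scaling is unknown. On that centred scale the member values were 0.20 at ITGA6, 0.15 at TSPAN18, 0.13 at TSPAN5, 0.06 at ITGA5, −0.00 at ITGAV, −0.08 at ITGA4 and −0.18 at TSPAN14. Their median was 0.06 with an SD of 0.13, and all regions had an SD of 0.24. None passed 1.5-fold, where 1.41% of all matched regions were higher and 1.02% lower. With 50% cover, 16 member regions matched and 2, both of ITGB1, were lower past 1.5-fold, at −0.67 and −0.585, the first of them the sgNT start-site region set against the longer sgSETD8 region. Of all 6011 regions matched at that cover, 2.66% were higher and 3.21% lower past 1.5-fold. At regions with matching borders, member density thus stayed near the centre of the table.

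**Figure D4:**
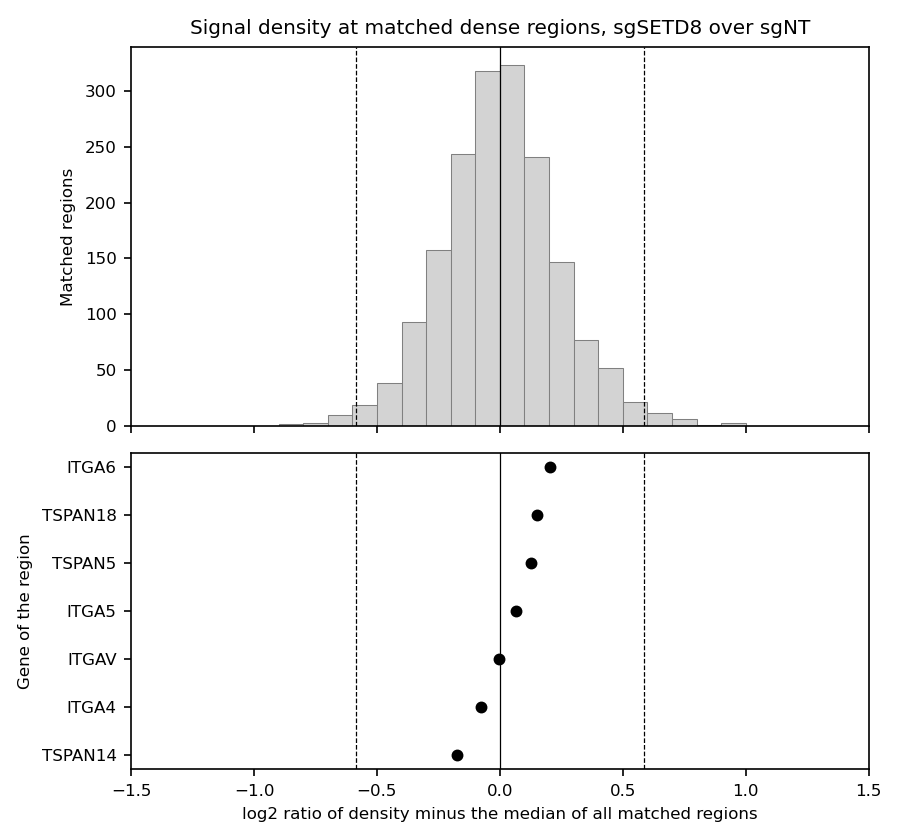
Upper panel, number of matched dense regions by log2 ratio of density, sgSETD8 over sgNT, after subtracting the median; lower panel, the 7 member regions by gene on the same axis. Dashed lines mark 1.5-fold, and the members lie between −0.18 and 0.20, inside both lines.

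Other genes of the pathway were counted in the same way, from lists of their own. Of 12 integrin activation genes, which encode proteins that switch integrins to the binding state, 8 had a region, with 6 regions in sparser sgNT, 7 in sparser sgSETD8, 13 in dense sgNT and 24 in dense sgSETD8. In the dense pair 5 of these genes had more regions in sgSETD8 (RAP1A from 3 to 7, APBB1IP from 2 to 5, TLN2 from 0 to 2, RAPGEF1 from 3 to 4 and RASSF5 from 2 to 3), 3 had the same number and none had fewer, where 37.3% of all genes in that pair had more and 21.2% fewer. RAP1B, a small GTPase, had 1 region under each guide but 44.3 kb in sgNT and 0.443 kb in sgSETD8. More regions did not mean more length: RAPGEF1 covered 135.9 kb in sgNT and 91.6 kb in sgSETD8.

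Of 23 adhesion complex and signalling genes, 22 had a region in some table, and 7 had more, 8 fewer and 6 the same number in dense sgSETD8, beside the same shares of all genes. The total of 37 regions in dense sgNT and 58 in dense sgSETD8 rests on NEDD9, a docking protein, with 6 and 30 regions over 107.5 and 78.2 kb. PTK2, the focal adhesion kinase, ranked 72 and 65 with 144.6 and 133.1 kb in sgNT and sgSETD8. Of 21 ligand genes 7 had a region (6 regions in dense sgNT, 10 in dense sgSETD8), and of 11 tetraspanins named otherwise, such as CD9 and CD53, 6 did (5 and 6). Of 8 partners of tetraspanins 5 did (5 and 3).

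Of 10 myeloid markers of Kasumi-1, 7 had a region in some table, with 52 regions in dense sgNT and 54 in dense sgSETD8. RUNX1 held 28 and 29 of these and CD34 17 in each, and KIT ranked 5 and 3. POU4F1, AZU1 and PRTN3 had none. Of 7 megakaryocyte markers 3 had a region, of 5 T-cell markers 4, of 5 B-cell markers 4 and of 6 non-haematopoietic markers 3. Megakaryocyte markers had 1 and 2 dense regions in sgNT and sgSETD8 and T-cell markers 4 and 5. B-cell markers had 8 and 10 and non-haematopoietic markers 0 and 1. By the share of genes with a region, the myeloid list was thus not set apart from the T-cell and B-cell lists.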

How the data were processed

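H3K27ac was mapped in 4 samples of Kasumi-1 cells, 2 per guide. The title of 1 sample per guide names CUT&Tag, and the other titles give no method. Per the submitters' processing notes, reads were trimmed with cutadapt and aligned with Bowtie2 to hg38. For the peak caller, stitching, annotation and versions, nothing is stated in the sources used here. The series' design text names H3K27me1, whereas every sample label names H3K27ac, which is used here. Each of the 4 tables lists regions with coordinates, a peak count in the identifier, an assigned gene and 1 value. The deposited value is a signal, a density with at most 4 decimals per base multiplied by region length, and it was divided by length (100% of values fitted that form). Tables were given a group from their region identifiers, except the sparser sgNT table. Its identifiers name only the cell line, and it was read as the control of its pair. In this way 0 value columns were left without a group.

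Members were taken by gene name prefix. Regions were ranked by signal, counterparts needed 1 shared base, and matched regions needed 90% reciprocal cover and were centred on the median of all matched regions. Intervals are exact Clopper-Pearson at 95% and cover counting error only. Gene spans, start sites and promoters came from RefSeq GRCh38.p14, matched by symbol, with all 29 member names found. The genes named are the 3 best-ranked regions per table, genes present in both tables of 1 guide, the matched regions, genes with the largest differences in region number and the leukocyte and TspanC8 genes. Other members are named so that all are accounted for. The members and lists were chosen with earlier results of these data known. Overlap and matching were tested on simulated regions. Computation used Python 3.11.15, pandas 2.3.3 and scipy 1.17.1.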

Additional observations from a re-analysis of the deposited data

How the results depend on the processing

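Ratios were formed within each of the 2 pairs of tables. No replicate block was fitted, since the labels give no shared replicate numbers and no model was fitted. The leave-one-out values of the mean log2 ratio of region numbers, each from 1 pair alone, were 0.00 and 0.06. That ratio, 0.03 over both pairs, was −0.13 among the best-ranked 5000 regions, −1.16 for regions of at least 500 bp (10 against 2 in the sparser pair, 39 against 39 in the dense pair), −0.13 within 50000 bp of a start site and 0.0858 for protein genes. In settings chosen after seeing the data it was −0.0784 without chromosome 17 and −0.71 when only sparser regions overlapping a dense region were counted (14 against 5). The sign of the total is therefore not stable. Over all regions the median width was 512 bp in sparser sgNT and 341 bp in sparser sgSETD8. With at least 50% of a region required to be covered, the share without a counterpart was 93.3% in sparser sgNT, 34.8% in dense sgNT and 54.2% in dense sgSETD8 (88.5%, 35.1% and 51.3% of all regions), and among the best-ranked 5000 it was 11.1% in dense sgSETD8 (19.8% of all). Genes under sgSETD8 only numbered 0 in the sparser pair for regions of at least 500 bp (26.7% of all genes). Among the best-ranked 5000 the dense pair had 1 gene under sgNT only and 1 under sgSETD8 only (793 and 794 of 4656 genes). Without centring, the median density ratio was −0.20. At 50% reciprocal cover 16 regions matched, and 2 of ITGB1 were lower past 1.5-fold (−0.67 and −0.585; 3.21% of all were lower). In settings chosen after seeing the data, 3 genes were longer and 3 shorter in dense sgSETD8 among the best-ranked 5000 (23.9% and 14.3% of all genes), and 9 were longer and 1 shorter among protein genes. In all, 49 alternative values were near the first and 16 moved. The cause was not tested. Unknown read depth, an unknown signal scale and 2 tables per group limit all comparisons.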
